A study of Rattus norvegicus with 18 samples.

Results

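The heat shock proteins and chaperones described here are the transcripts of 44 of the 4737 genes that the array names by a single symbol, read by 85 of the 8740 non-control probe sets of the rat Genome U34 GeneChip, array A. A probe set belongs to the group when the platform annotation gives it a single gene symbol that begins with Hspa, Hspb, Hspd, Hspe, Hsph, Hsp90, Dnaj, Pdia, Fkbp or Cct, or that is Calr, Canx, Hyou1, Stip1, P4hb or Serpinh1. By the usual site of the protein, 45 probe sets of 23 genes were taken as cytosolic, 32 of 17 genes as members of the endoplasmic reticulum (ER) and 8 of 4 genes as mitochondrial, with nuclear and vesicle-bound members counted as cytosolic. A further 10 probe sets carried several symbols of which at least 1 fits these names, and they were left out. The RNA came from the suprachiasmatic nucleus (SCN), a small paired nucleus of the hypothalamus in which the master clock of mammals resides, of adult male Long-Evans rats without any mutation or drug treatment named in the labels. The rats, kept until then on a light-dark cycle, were placed in constant darkness at dusk, and were decapitated under isoflurane from the next projected dawn onward. RNA of 5 rats was pooled at each of 8 time points, 0, 6, 12, 18, 24, 30, 36 and 42 h, so that circadian time (CT) 12, dusk, and CT 0, dawn, as well as CT 6 and CT 18, the middles of the subjective day and night, were each sampled by 2 pools of different animals. The pools were read on 8 arrays of a technical repeat and 10 arrays of a first run, in which 24 h and 36 h have a pair of arrays each. The labels do not say what sets the arrays of a pair apart, and they were averaged as readings of 1 pool. Pooling hides the spread between animals, and the dissection holds whole tissue with its glia and vessels.

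Chaperones are proteins that help other proteins to fold, assemble and cross membranes. In the cytosol, Hsp70 binds unfolded segments with the help of J-domain proteins (the Dnaj genes), which stimulate its ATPase, and of Hsp110 proteins, which exchange its nucleotide, while Hsp90 finishes the folding of kinases and steroid receptors with the help of FKBP co-chaperones. In the ER, the Hsp70 protein Hspa5 (BiP), the lectin chaperones calnexin and calreticulin, and the protein disulfide isomerases fold secreted and membrane proteins, and in mitochondria Hspa9 pulls imported proteins across the inner membrane and the Hspd1 and Hspe1 chaperonin encloses them. Many of the cytosolic and mitochondrial genes are induced by the heat shock factor Hsf1 and many of the ER genes by the unfolded protein response. In several mammalian tissues heat shock genes follow the daily rhythm of body temperature, which makes them of interest in a circadian series.

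Some promoters of the group carry the elements through which Hsf1 or the unfolded protein response act, and 5 windows are shown as examples of these. RefSeq promoters of the build GRCr8, searched over the 250 bases before the gene start on both strands, were found for 39 of the 44 genes. The heat shock element was searched as 3 alternating units, GAA then TTC then GAA or the inverse, with 2 bases of any kind between units, and was present in Serpinh1, Hsph1, Hspd1 and Hspe1, 4 of 39 genes, and in 0.663% of 27457 rat genes. The ER stress element, searched as CCAAT followed after any 9 bases by CCACG, was present in Hspa5, Canx, Calr and Hsp90b1, again 4 of 39, and in 0.0765% of all genes, and the related ER stress element II, ATTGG followed after 1 base by CCACG, in Hyou1, with 0.051% of all genes. Most of the 39 genes, Dnajb1 and Hspb1 among them, held none of these letters in this window. Of the elements through which clock proteins act, the E-box CACGTG was found in Canx, Dnajb9, Fkbp2, Pdia2 and Hsph1, 5 of 39 genes against 6.18% of all genes, and the D-box TTATGTAA in 0 of 39 against 0.885%. Hspd1 and Hspe1 lie head to head with 290 bases between their starts, and the element of the Hspe1 window, chr9:64084242-64084299 (plus strand), is the same stretch of DNA that was matched for Hspd1 on the other strand. The windows of the genes that return below lie at chr1:163062979-163063031 (minus strand), chr3:38452953-38453011 (plus strand), chr10:35158049-35158107 (minus strand) and chr19:40213117-40213173 (plus strand). Capitals mark the matched element, written 5′ to 3′ in the direction of the gene.
Serpinh1: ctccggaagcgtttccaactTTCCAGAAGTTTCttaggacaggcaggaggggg
Hspe1: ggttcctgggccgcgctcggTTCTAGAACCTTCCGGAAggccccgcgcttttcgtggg
Hspa5: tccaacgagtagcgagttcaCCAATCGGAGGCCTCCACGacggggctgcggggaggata
Canx: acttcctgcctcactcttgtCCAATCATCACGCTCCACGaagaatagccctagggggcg
Calr: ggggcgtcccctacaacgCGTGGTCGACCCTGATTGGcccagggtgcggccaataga
A match is a match of letters within this window and was not tested for binding.

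Signal is given as the authors' scaled probe set intensity, and a pool's value is the geometric mean of its readings in both runs. Only probe sets with a mean above the median of the array, an intensity of 121, were tested, which kept 59 of the 85 chaperone probe sets, those of 33 genes, among 4370 tested probe sets. Each was fitted with a cosine and a sine of 24 h over the 8 pools with limma, and p-values were adjusted by Benjamini-Hochberg over all 4370. The medians of the arrays lay at 107.9 to 127.6 in the technical repeat and at 136.5 to 152.3 in the first run. Among markers of the tissue, Avp, Gad1, Sst and Scg2 were above the filter, whereas Vip had a mean intensity of 49.0, Rorb 17.5 and Lhx1 14.9, all 3 below it. Each time point has 1 pool, and the p-values therefore reflect the spread of pools around the fitted curve, part of which is array error. Readings of 1 pool differed between the runs by a median SD of 0.27 log2 units over the cytosolic, 0.33 over the ER and 0.42 over the mitochondrial chaperones, while the pool means had SDs of 0.24, 0.26 and 0.29 over the 8 pools. The former are SDs of a single reading, with the level difference of the runs removed, and the latter of means of both runs. They are therefore not directly comparable. Probe sets whose names end in _s_at hold probes shared by several transcripts, so their signal may come from close relatives too. In this bulk tissue, fewer cells of a type and less RNA per cell cannot be told apart.

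No chaperone transcript passed the test of a daily rhythm. None of the 59 tested chaperone probe sets passed the adjusted threshold of 0.05 in the limma test of a 24-h rhythm, where 0.0% of all tested probe sets did; the lowest adjusted p of a chaperone was 0.321, that of Serpinh1. At an unadjusted p under 0.05, 12 chaperone probe sets of 10 genes stood out, or 20.3% of the 59, against 6.36% of all tested probe sets. They comprised 7 of 31 cytosolic, 3 of 22 ER and 2 of 6 mitochondrial probe sets. Without the pool at 0 h the 12 became 6, and without that at 12 h they became 7. The share of all tested probe sets without these pools was not taken for the rhythm. The fitted amplitude, the distance from the mean to the peak, had a median of 0.17 log2 units over the cytosolic, 0.21 over the ER and 0.20 over the mitochondrial probe sets, against 0.16 over all tested, with median standard errors of 0.11 to 0.12. Fitted peaks gathered around the late subjective night and dawn: 22 of the 59 lay nearest CT 0 and 20 nearest CT 18, against 26.3% and 24.6% of all tested, and 6 nearest CT 6 and 11 nearest CT 12, against 21.1% and 28.0%. Of the 12 with a low p, 8 peaked nearest CT 0, against 38.8% of all such probe sets, 1 nearest CT 6, against 14.4%, 1 nearest CT 12, against 30.2%, and 2 nearest CT 18, against 16.5%.

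**Figure D1:**
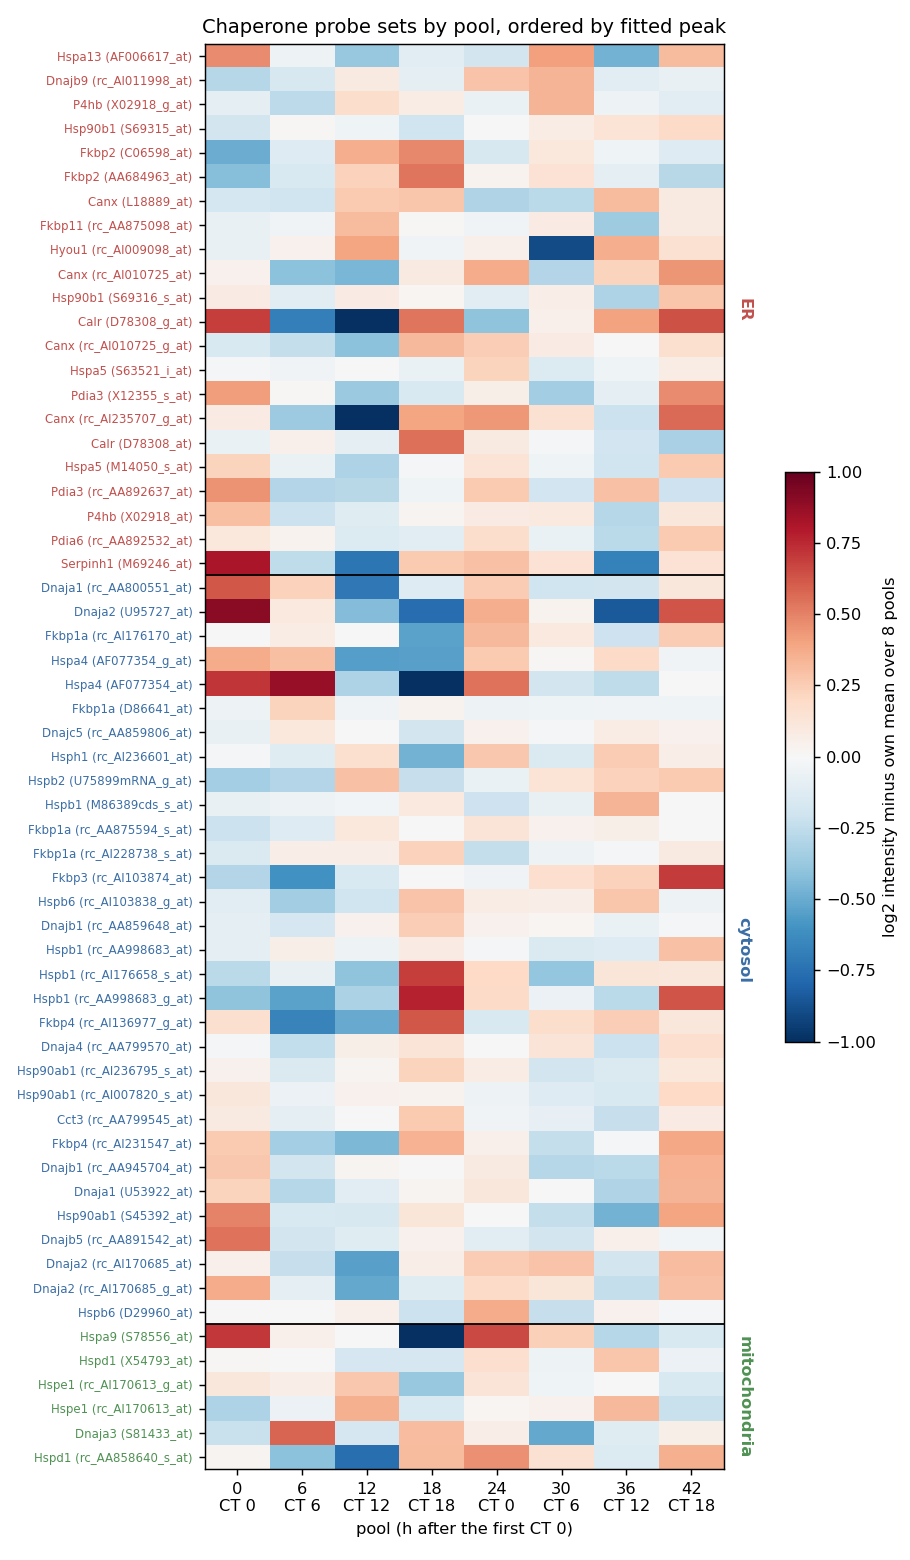
Heat map of the 59 tested chaperone probe sets (rows) over the 8 pools (columns, hours after the first CT 0 with the circadian time), showing the log2 intensity of each pool minus the probe set's own mean; the scale ends at -1 and 1, and rows are grouped as ER, cytosol and mitochondria and ordered by fitted peak. Serpinh1 is low in both CT 12 pools, while probe sets of 1 gene, such as those of Canx, do not share a course.

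The contrast of dusk with dawn found no called chaperone. For CT 12 minus CT 0, 0 of 59 passed the adjusted threshold of limma's test, where 0.0% of all tested probe sets did, and 10 had an unadjusted p under 0.05, against 8.67% of all. Of these 10, 2 were higher at CT 12 (Canx and Hspe1, against 4.19% of all) and 8 were lower (Serpinh1, Dnaja1, 2 of Dnaja2, Hsp90ab1, Hspa5, Hspd1 and another probe set of Canx, against 4.49%). Without the pool at 12 h the 10 became 6, but all tested probe sets also fell, from 183 higher and 196 lower to 124 and 133. Without the pool at 0 h the chaperones gave 1 higher and 7 lower, against 86 and 102 among all 4370 tested. The split depended on the scaling of the arrays, since centring each array on its median gave 1 higher and 18 lower chaperones, but also 84 higher and 350 lower among all tested probe sets, where the deposited scaling gave 183 and 196. Both CT 12 pools lay below both CT 0 pools in 22 of the 59 probe sets, against 21.6% of all tested, and above them in 9, against 23.2%. The sign was the same on both days in 39 of 59, close to the 61.4% of all tested probe sets.

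At mid-day the chaperones were more often lower than higher relative to mid-night, without a called probe set. For CT 6 minus CT 18, 0 of 59 chaperones passed the adjusted limma threshold, against 0.0229% of all, and 6 had an unadjusted p under 0.05, against 4.26%. These were 1 that was higher at CT 6 (Hspa4, against 1.88% of all) and 5 that were lower (2 of Canx, 2 of Hspb1 and 1 of Fkbp4, against 2.38%). All tested probe sets gave 82 higher and 104 lower as deposited, 98 and 82 after quantile normalization, and 128 and 69 with arrays centred on their median, where the chaperones gave 1 and 4, and 2 and 3. Both CT 6 pools lay below both CT 18 pools in 20 of 59 chaperone probe sets, against 17.3% of all, and above them in 5, against 14.1%. The 5 comprised 4 of the 6 mitochondrial and 1 of the 31 cytosolic probe sets. The sign was shared by both days in 34 of 59, against 46.6% of all.

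Set out by compartment and run, the dusk-to-dawn difference was larger in the technical repeat. The median CT 12 minus CT 0 difference of the 22 ER probe sets was -0.20 log2 units for the mean of the runs, -0.31 in the technical repeat and -0.05 in the first run. That of the 31 cytosolic probe sets was -0.13, -0.24 in the technical repeat and -0.09 in the first run. That of the 6 mitochondrial probe sets was -0.05, -0.35 in the technical repeat and 0.10 in the first run, so its sign depended on the run, and without the pool at 24 h it was 0.02. All tested probe sets had medians of 0.01, 0.03 and -0.01 in the same order. Counted singly, 16 of 22 ER probe sets were lower at CT 12 in the technical repeat and 12 of 22 in the first run, and for the cytosol the counts were 24 of 31 and 21 of 31. Both runs read the same pools, so these are repeated readings and not repeated animals.

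Over probe sets, the CT 6 minus CT 18 medians were closer between the runs. They were -0.15 for the ER, -0.14 in the technical repeat and -0.15 in the first run, and -0.19 for the cytosol, -0.17 in each run alone. The mitochondrial median was 0.13, with 0.07 in the technical repeat and 0.13 in the first run, and all tested probe sets had -0.02, -0.03 and -0.01. Over the mean of the runs 18 of 22 ER and 23 of 31 cytosolic probe sets were lower at CT 6, while 4 of 6 mitochondrial ones were higher. Among all 4370 tested probe sets 2313 were lower. In the technical repeat 17 of 22 ER and 22 of 31 cytosolic probe sets were lower, and in the first run 14 of 22 and 21 of 31. The 6 mitochondrial probe sets come from 4 genes, and the difference between compartments was not tested. With 1 probe set per gene, the brightest, the CT 6 minus CT 18 medians were -0.10 for 13 ER genes, -0.20 for 16 cytosolic genes and 0.13 for 4 mitochondrial genes, against CT 12 minus CT 0 medians of -0.15, -0.13 and -0.05. Counted so, the ER median for CT 6 minus CT 18 was -0.13 in the technical repeat and -0.017 in the first run, so the closeness of the runs for the ER did not hold with 1 probe set per gene.

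**Figure D2:**
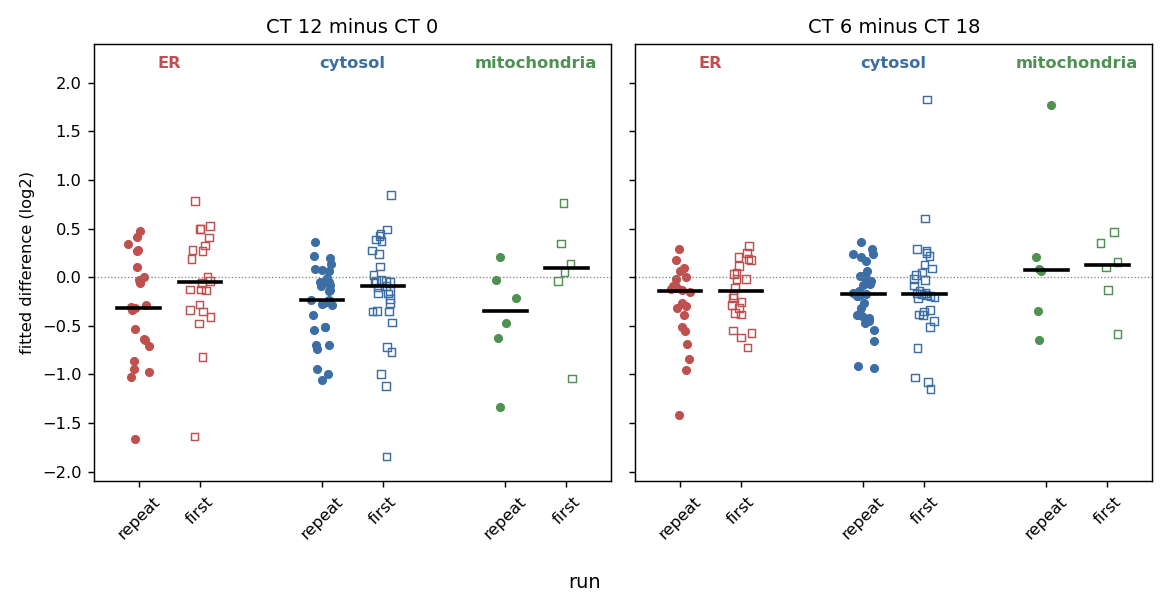
Fitted log2 differences of each tested chaperone probe set, CT 12 minus CT 0 on the left and CT 6 minus CT 18 on the right, by compartment, with filled circles for the technical repeat, open squares for the first run and black bars for medians. The CT 12 minus CT 0 medians are -0.31 and -0.05 for the ER, -0.24 and -0.09 for the cytosol, and -0.35 and 0.10 for the mitochondria in the technical repeat and the first run.

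Along the 8 pools, the median ER chaperone lay furthest below its own mean at 6 h, by -0.14 log2 units, where 5 of 22 probe sets were above their mean, and furthest above it at 42 h, by 0.15, where 16 of 22 were. The median cytosolic chaperone lay at -0.12 at 6 h, with 9 of 31 above their mean, and at 0.11 at 42 h, with 24 of 31. The mitochondrial median was lowest at 18 h, at -0.16, and highest at 24 h, at 0.15, where 6 of 6 probe sets were above their mean. The median over all tested probe sets stayed between -0.01 and 0.03. The runs parted most at 24 h for the ER, with 0.26 in the technical repeat and -0.03 in the first run, and at 12 h for the mitochondria, with -0.28 and 0.20.

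**Figure D3:**
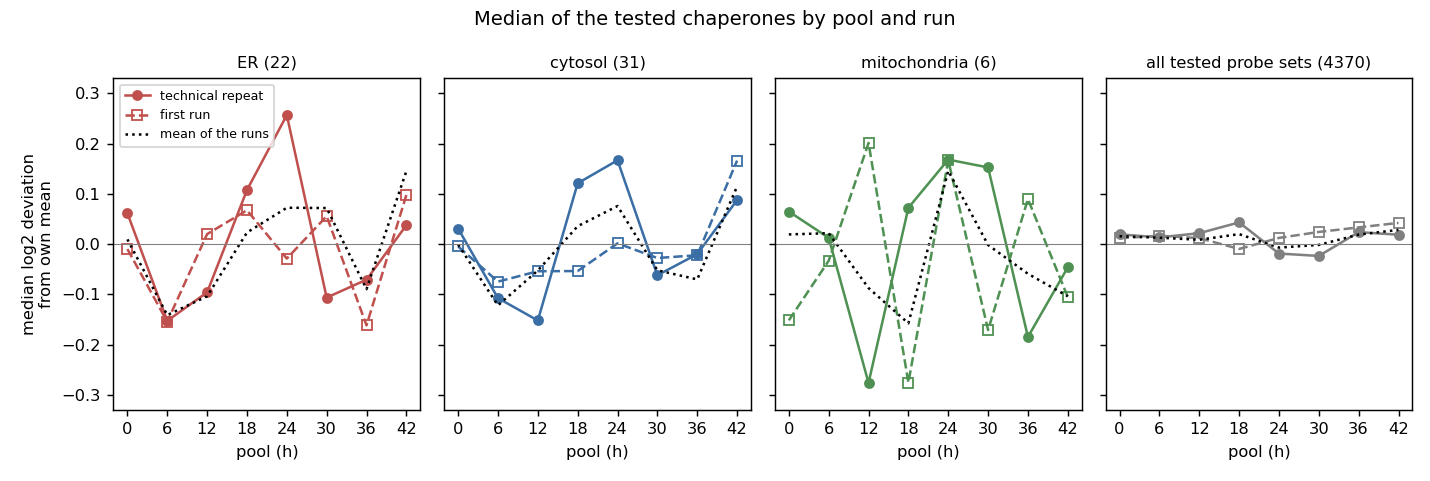
Median log2 deviation of the tested chaperones from their own mean (vertical axis) by pool (horizontal axis, hours after the first CT 0) for the ER, the cytosol, the mitochondria and all tested probe sets, with numbers of probe sets in brackets; circles are the technical repeat, squares the first run and the dotted line the mean of the runs. The ER median is -0.14 at 6 h and 0.15 at 42 h for the mean of the runs, and the mitochondrial lines of the runs stand at -0.28 and 0.20 at 12 h.

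Serpinh1 (Hsp47), the ER chaperone of procollagen whose promoter holds the heat shock element printed above, had the lowest rhythm p of the group. Its intensity was 120.5 and 124 in the CT 12 pools, against 349 and 243 in the CT 0 pools, and 166 and 219.8 in the CT 6 pools, against 237 and 219 in the CT 18 pools. Both dusk pools were the lowest of the 8, and neither overlapped the dawn pools. The fitted amplitude was 0.64 ± 0.11 log2 units (SE, 8 pools) with a peak at CT 23.2, and an exact permutation of the pools over the phases gave p = 0.00635, where 0.00317 is the smallest p that this test can give, but the adjusted limma p was 0.321. The CT 12 minus CT 0 difference was -1.25 ± 0.23 (limma adjusted p = 0.144), with -0.86 in the technical repeat and -1.64 in the first run. In the technical repeat the CT 12 readings were 141 and 207, against 297 and 326 at CT 0, and in the first run 103 and 74.3, against 411 and 181, so both runs had the same order. In the technical repeat the reading at 36 h was nonetheless above those at 6 h, 199, and 42 h, 196. Left-out pools moved the difference between -1.52 and -1.10.

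A list of collagen and fibroblast genes, of which the collagens are clients of Serpinh1, was set beside this course. Of the 16 genes of that list, 13 were on the array and 12 above the filter. Of the 12, 9 were lower at CT 12 than at CT 0, against 2139 of all 4370 tested probe sets. The median CT 12 minus CT 0 difference was -0.14 log2 units, and 0 of 12 had an unadjusted limma p under 0.05, against 8.67% of all. The summed intensity of the 13 was 12246 to 17407 in the CT 12 pools, against 14306 to 17174 in the CT 0 pools, so the ranges overlapped. Its largest parts were Sparc, with a mean intensity of 5490, and Igf2, with 3656. Neither is a collagen, so the sum cannot show the course of the collagens. Among the 5 collagen genes Col3a1 had a difference of -0.80, Col5a1 -0.29, Col5a2 -0.13, Col1a2 0.003 and Col1a1 0.21. Postn was below the filter with a mean intensity of 21.4. The part of fibroblast or meningeal tissue in the Serpinh1 course was not tested.

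The lectin chaperones hold glycoproteins in the ER until they are folded, and Canx (calnexin), the membrane-bound one, was read by 5 probe sets of which 4 were tested. Probe set L18889_at gave 288 and 299 in the CT 12 pools, against 213 and 195 in the CT 0 pools, and 209 and 199.5 at CT 6, against 291 and 256 at CT 18. Here both dusk pools were higher than both dawn pools, with a CT 12 minus CT 0 difference of 0.53 ± 0.17 log2 units (limma adjusted p = 0.514) and a fitted peak at CT 14.6. Probe set rc_AI235707_g_at had the opposite order, with 478 and 855 at CT 12, against 1053 and 1344 at CT 0, a difference of -0.90 ± 0.33 (limma adjusted p = 0.514) and a peak at CT 21.8. The brighter rc_AI010725_at read 3418 and 3694 at CT 6, against 4822 and 6175 at CT 18, a difference of -0.62 ± 0.25 (limma adjusted p = 0.968). Its partner rc_AI010725_g_at read 8303 and 10337 at CT 6, against 12219 and 10912 at CT 18, with -0.32 ± 0.23. All 4 were thus lower on average at CT 6 than at CT 18, whereas at dusk 1 was higher and 3 were lower than at dawn.

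For Canx the runs disagreed as well. The CT 12 minus CT 0 difference of rc_AI235707_g_at was -1.67 in the technical repeat and -0.13 in the first run, and that of rc_AI010725_g_at was -1.03 in the technical repeat and 0.52 in the first run. For rc_AI010725_g_at the technical repeat read 5795 and 7759.8 at CT 12, against 12817 and 14651 at CT 0, while the first run read 9399.7 and 12222 at CT 12, against 6059 and 9166 at CT 0. The order of dusk and dawn was therefore reversed between readings of the same RNA. The limma test of a different time course in the technical repeat and the first run had an unadjusted p of 0.00377 for rc_AI010725_g_at and of 0.0191 for rc_AI010725_at, and an adjusted p of 0.999 for both.

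Calr (calreticulin), the soluble lectin chaperone that also binds calcium, was read by 3 probe sets, 2 of them tested. D78308_at read 2165 and 2013 at CT 12, against 2202 and 2451 at CT 0, and 2392 and 2274 at CT 6, against 3375 and 1839.8 at CT 18, with a CT 12 minus CT 0 difference of -0.15 ± 0.26. The dim D78308_g_at read 54.5 and 169.5 at CT 12, against 207 and 97.0 at CT 0, and 80.1 and 133 at CT 6, against 186 and 199.6 at CT 18. Its CT 12 minus CT 0 difference was 0.81 on the second day and -1.93 on the first, and its test of a different course on the days had an unadjusted limma p of 0.00164, adjusted 1. The 6 tested probe sets of lectin chaperones were all lower at CT 6 than at CT 18, with a median of -0.50, where 2313 of all 4370 tested were lower. This median was -0.50 after quantile normalization and -0.45 with arrays centred on their median. In the technical repeat 5 of 6 were lower (median -0.41), in the first run 6 of 6 (-0.47), and without the pool at 18 h 5 of 6. They come from 2 genes.

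Hspa5 (BiP), the ER Hsp70 whose promoter carries the ER stress element shown above, read 2324 and 2507 with M14050_s_at in the CT 12 pools, against 3359.7 and 3164 in the CT 0 pools, and 2741 and 2783 at CT 6, against 2856 and 3442 at CT 18. Both dusk pools were the lowest of the 8. The CT 12 minus CT 0 difference was -0.43 ± 0.17 log2 units (limma adjusted p = 0.559), with -0.53 in the technical repeat and -0.34 in the first run, and the permutation p was 0.0159. The brighter S63521_i_at read 3639 and 3527 at CT 12, against 3577 and 4236 at CT 0, a difference of -0.12 ± 0.18. In the technical repeat alone it read 2464 and 2438 at CT 12, against 3816 and 3858 at CT 0, and in the first run 5376 and 5102, against 3352 and 4651. The order was again reversed between the runs, with an unadjusted limma p of 0.0121 for the difference of the courses. Hspa13, a microsomal member of the Hsp70 family, read 336 and 314 at CT 12, against 605 and 384 at CT 0. Of the 4 tested Hsp70 probe sets, those of Hspa5, Hspa13 and Hspa9, all 4 were lower at CT 12, with a median of -0.50 that was -0.50 and -0.59 under the other scalings. Among all 4370 tested probe sets 2139 were lower. All 4 were also lower in the technical repeat, but 3 of 4 in the first run and 3 of 4 without the pool at 24 h.

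Protein disulfide isomerases form and shuffle disulfide bonds. Pdia6 read 3316 and 3019.7 at CT 12, against 3923 and 4115 at CT 0, a difference of -0.34 ± 0.19 log2 units with -0.63 in the technical repeat and -0.06 in the first run. P4hb, which is also a subunit of the collagen prolyl hydroxylase, read 1289.7 and 1149 with X02918_at at CT 12, against 1724 and 1483 at CT 0, and 1053 and 902 with X02918_g_at, against 870.5 and 892. The differences of these probe sets were -0.39 ± 0.18 and 0.14 ± 0.22, of opposite sign. Pdia3 (ERp57), which works with the lectin chaperones, had differences of -0.47 ± 0.25 and -0.35 ± 0.27 with its 2 probe sets. In all, 4 of 5 probe sets of this family were lower at CT 12, with a median of -0.35 (-0.34 after quantile normalization and -0.43 with arrays centred on their median). At an unadjusted limma p under 0.05, 0 of 5 were lower as deposited, where 196 of 4370 tested probe sets were. With arrays centred on their median 3 of 5 were lower, where 350 of 4370 were. In the technical repeat alone 2 of 5 were lower, against 148 of 4370, and in the first run alone 0 of 5, against 138 of 4370.

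The remaining ER members had no unadjusted p under 0.05 in these tests. Hsp90b1 (Grp94), the ER Hsp90, had CT 12 minus CT 0 differences of 0.14 ± 0.19 and -0.10 ± 0.21 log2 units with its 2 tested probe sets, and amplitudes of 0.07 ± 0.10 and 0.10 ± 0.10. Hyou1, the ER Hsp110, read 324 and 169.9 at CT 6, against 309 and 350.0 at CT 18, so that the pool at 30 h stood apart from the other 7. That pool read 66.3 in the technical repeat and 435 in the first run. Dnajb9, an ER J-domain protein, had an amplitude of 0.08 ± 0.12. The ER prolyl isomerase Fkbp2 was higher at dusk in both of its probe sets, with 1683 and 1273 at CT 12, against 932 and 1174 at CT 0, for C06598_at and a difference of 0.48 ± 0.25 (limma adjusted p = 0.604), and 0.26 ± 0.28 for AA684963_at. Fkbp11 had a difference of 0.03 ± 0.22.

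Among the cytosolic members, J-domain proteins had the largest dusk-to-dawn differences at an unadjusted p under 0.05. Dnaja1, a farnesylated partner of Hsp70, read 2894 and 4177 with rc_AA800551_at in the CT 12 pools, against 7295 and 5670.3 in the CT 0 pools, and 5575 and 4137 at CT 6, against 4332 and 5137 at CT 18. The dawn pools were the 2 highest of the 8, and the pool at 12 h was the lowest. Its fitted peak lay at CT 0.11 with an amplitude of 0.44 ± 0.12 log2 units, a permutation p of 0.0413 and an adjusted limma p of 0.746. Between CT 12 and CT 0 it differed by -0.89 ± 0.24, with -1.06 in the technical repeat and -0.72 in the first run. The second Dnaja1 probe set, U53922_at, had -0.37 ± 0.19, with -0.27 in the technical repeat and -0.47 in the first run.

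Dnaja2, a close relative of Dnaja1, was lower at dusk in all 3 of its probe sets. U95727_at read 218 and 164 in the CT 12 pools, against 551 and 378 in the CT 0 pools, and 314 and 302 at CT 6, against 174 and 455 at CT 18. Its CT 12 minus CT 0 difference was -1.27 ± 0.38 log2 units (limma adjusted p = 0.514), with -0.69 in the technical repeat and -1.85 in the first run. The runs differed in level as well, since the 8 readings of the technical repeat spanned 563 to 1141 and those of the first run 46.3 to 344. rc_AI170685_g_at read 627 and 757 at CT 12, against 1153 and 1023 at CT 0, a difference of -0.66 ± 0.21, and rc_AI170685_at one of -0.52 ± 0.24. In each of the 3 probe sets both CT 12 pools were below both CT 0 pools. The 3 share the gene and the pools, and so are no independent evidence of one another.

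The other J-domain proteins had smaller differences. Dnajb1 (Hsp40), a classical heat shock gene, had CT 12 minus CT 0 differences of -0.30 ± 0.19 and 0.01 ± 0.18 log2 units with its 2 probe sets, and CT 6 minus CT 18 differences of -0.41 ± 0.19 and -0.19 ± 0.18. Dnaja4 had -0.07 ± 0.19 and Dnajb5 -0.25 ± 0.23 for CT 12 minus CT 0. Dnajc5, the cysteine string protein of synaptic vesicles, was among the brightest and flattest members, with 8635 and 9032 at CT 12, against 8176 and 8866 at CT 0, and an amplitude of 0.06 ± 0.09. Over the whole family, which includes Dnajb9 and the mitochondrial Dnaja3, 10 of 12 probe sets were lower at CT 12, with a median of -0.28 that was -0.28 and -0.36 under the other scalings, -0.28 in the technical repeat and -0.31 in the first run.

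**Figure D4:**
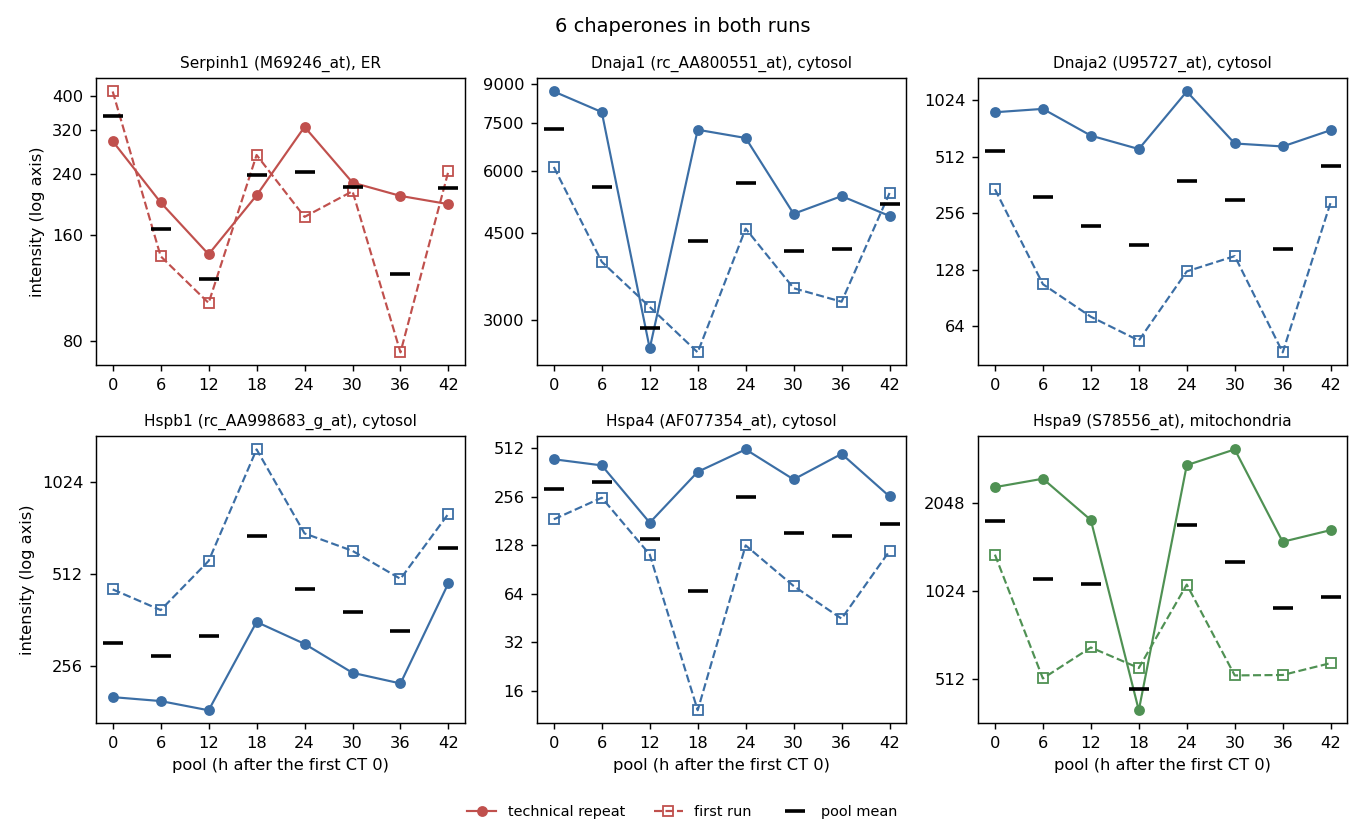
Intensity (log axis) of 6 chaperone probe sets by pool (horizontal axis, hours after the first CT 0), with circles for the technical repeat, squares for the first run and black bars for the pool means, in red for the ER, blue for the cytosol and green for the mitochondria. The pool means of Serpinh1 are lowest at 12 h and 36 h, and Hspb1 is highest at 18 h and 42 h in both runs, whereas Hspa4 is at the floor of 12.1 on 1 first-run array at 18 h.

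Hspb1 (Hsp27), a small heat shock protein that binds unfolding proteins and actin and that glia express under stress, had the largest CT 6 minus CT 18 difference of the 5 that were lower at an unadjusted p under 0.05. Probe set rc_AA998683_g_at read 276 and 384 in the CT 6 pools, against 682 and 619 in the CT 18 pools, and 321 and 332 at CT 12, against 303 and 457 at CT 0. Both CT 18 pools were the highest of the 8. The CT 6 minus CT 18 difference was -0.997 ± 0.29 log2 units (limma adjusted p = 0.968), with -0.92 in the technical repeat and -1.08 in the first run, and the fitted peak fell at CT 18.7. rc_AI176658_s_at read 529 and 424 at CT 6, against 899 and 601 at CT 18, a difference of -0.63 ± 0.28. The brightest probe set of the gene, rc_AA998683_at, had -0.23 ± 0.18, and its CT 12 minus CT 0 difference was -0.51 in the technical repeat and 0.44 in the first run. M86389cds_s_at, close to the filter, had -0.11 ± 0.18.

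Hspb6 (Hsp20) had CT 6 minus CT 18 differences of -0.26 ± 0.23 and -0.00228 ± 0.22 log2 units, and Hspb2, whose gene neighbours that of alpha-B crystallin, -0.09 ± 0.23. Hspb2 was higher at dusk by 0.46 ± 0.23, with 0.08 in the technical repeat and 0.85 in the first run. All 7 small heat shock protein probe sets were lower at CT 6 than at CT 18, with a median of -0.23, and 6 of 7 were lower after quantile normalization (median -0.24), with arrays centred on their median (-0.18) and in each run alone. Of these 7, 4 are probe sets of Hspb1.

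Hsp90ab1 (Hsp90 beta), the constitutive cytosolic Hsp90, was read by 4 probe sets, 3 of them tested. S45392_at read 1345 and 1085 in the CT 12 pools, against 2124 and 1510.5 in the CT 0 pools, and 1355 and 1277 at CT 6, against 1633 and 1978 at CT 18. That probe set's CT 12 minus CT 0 difference was -0.57 ± 0.22 log2 units (limma adjusted p = 0.535), with -0.14 in the technical repeat and -0.998 in the first run. The brightest, rc_AI236795_s_at, read 14169.5 and 12588 at CT 12, against 14307 and 14651 at CT 0, and 12538 and 12246 at CT 6, against 16199 and 14954 at CT 18. Its permutation p was 0.00317, the smallest that the 8 pools allow, with an amplitude of 0.17 ± 0.08 and an unadjusted limma p of 0.158, adjusted 0.775. rc_AI007820_s_at had a CT 6 minus CT 18 difference of -0.21 ± 0.17. All 3 probe sets peaked between CT 19.3 and CT 21.4 in the fit.

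Fkbp4 (FKBP52), the Hsp90 co-chaperone of steroid receptors, read 144 and 154 with rc_AI231547_at in the CT 6 pools, against 231 and 238 in the CT 18 pools, and 134 and 179.8 at CT 12, against 218 and 189 at CT 0. The mid-night pools were the 2 highest of the 8. The CT 6 minus CT 18 difference was -0.66 ± 0.20 log2 units (limma adjusted p = 0.968), with -0.93 in the technical repeat and -0.38 in the first run, and the permutation p of the rhythm was 0.0254. Its second tested probe set, rc_AI136977_g_at, had -0.61 ± 0.33, with 0.06 on the second and -1.29 on the first day. Fkbp1a (FKBP12), the small FK506-binding protein, had 4 probe sets with amplitudes of 0.05 to 0.17 and the brightest at 5342 to 9655 over the pools. The family as a whole had 7 of 10 probe sets higher at CT 12, with a median of 0.08 that turned to -0.01 when arrays were centred on their median and to -0.08 in the technical repeat alone.

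Hspa4, an Hsp110-type exchange factor of Hsp70, had its fitted peak in the early day. AF077354_at read 318 and 153 in the CT 6 pools, against 66.5 and 174 in the CT 18 pools, and 141 and 146 at CT 12, against 285 and 254 at CT 0. The CT 6 minus CT 18 difference was 1.04 ± 0.45 log2 units (limma adjusted p = 0.968), with 0.24 in the technical repeat and 1.83 in the first run. It rested on the pool at 18 h, whose first-run array read at or below the floor of 12.1 while the technical repeat read 365, and without that pool it was 0.34. The brighter AF077354_g_at had 0.45 ± 0.27, and a peak at CT 2.79. Hsph1 (Hsp105), with the heat shock element in its promoter, was flat, with 6084 and 6495 at CT 12, against 5405 and 6561 at CT 0, and an amplitude of 0.05 ± 0.13. Cct3, a subunit of the cytosolic chaperonin for actin and tubulin, had an amplitude of 0.15 ± 0.09.

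The mitochondrial chaperones gave mixed courses. Hspa9 (mortalin), the Hsp70 of the import motor, read 1127 and 1281 in the CT 6 pools, against 471 and 978 in the CT 18 pools, and 1083 and 891 at CT 12, against 1777 and 1723 at CT 0. Both CT 0 pools were the highest of the 8, and that at 18 h was the lowest. Its fitted peak lay at CT 2.98 with an amplitude of 0.59 ± 0.19 log2 units (limma adjusted p = 0.746), and without the pool at 18 h it was 0.43. The CT 6 minus CT 18 difference was 1.78 in the technical repeat and -0.13 in the first run. The technical repeat read 2479 and 3124 at CT 6, against 399 and 1653 at CT 18, and the first run 513 and 525 at CT 6, against 557 and 579 at CT 18. The difference of the courses had an unadjusted limma p of 0.0203, adjusted 0.999. The other 2 probe sets of Hspa9 were below the filter.

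Hspd1 (Hsp60) and Hspe1 (Hsp10) make the mitochondrial chaperonin from 1 shared promoter region, shown above, but their probe sets did not share a course. Hspd1 read 1107 and 1703 with rc_AA858640_s_at at CT 12, against 1901 and 2569 at CT 0, a difference of -0.69 ± 0.28 log2 units (limma adjusted p = 0.559), with -1.33 in the technical repeat and -0.04 in the first run. The brighter X54793_at read 8056 and 10944 at CT 12, against 9148 and 10146 at CT 0, a difference of -0.04 ± 0.20. Hspe1 read 21348 and 20908 with rc_AI170613_at at CT 12, against 13464 and 16919.5 at CT 0, so both dusk pools were the highest of the 8. That difference was 0.49 ± 0.20 (limma adjusted p = 0.559), with 0.20 in the technical repeat and 0.77 in the first run, whereas rc_AI170613_g_at of the same gene had 0.02 ± 0.21. Dnaja3 (Tid1), the J-domain partner of Hspa9, had -0.07 ± 0.32, with -0.48 in the technical repeat and 0.35 in the first run.

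**Figure D5:**
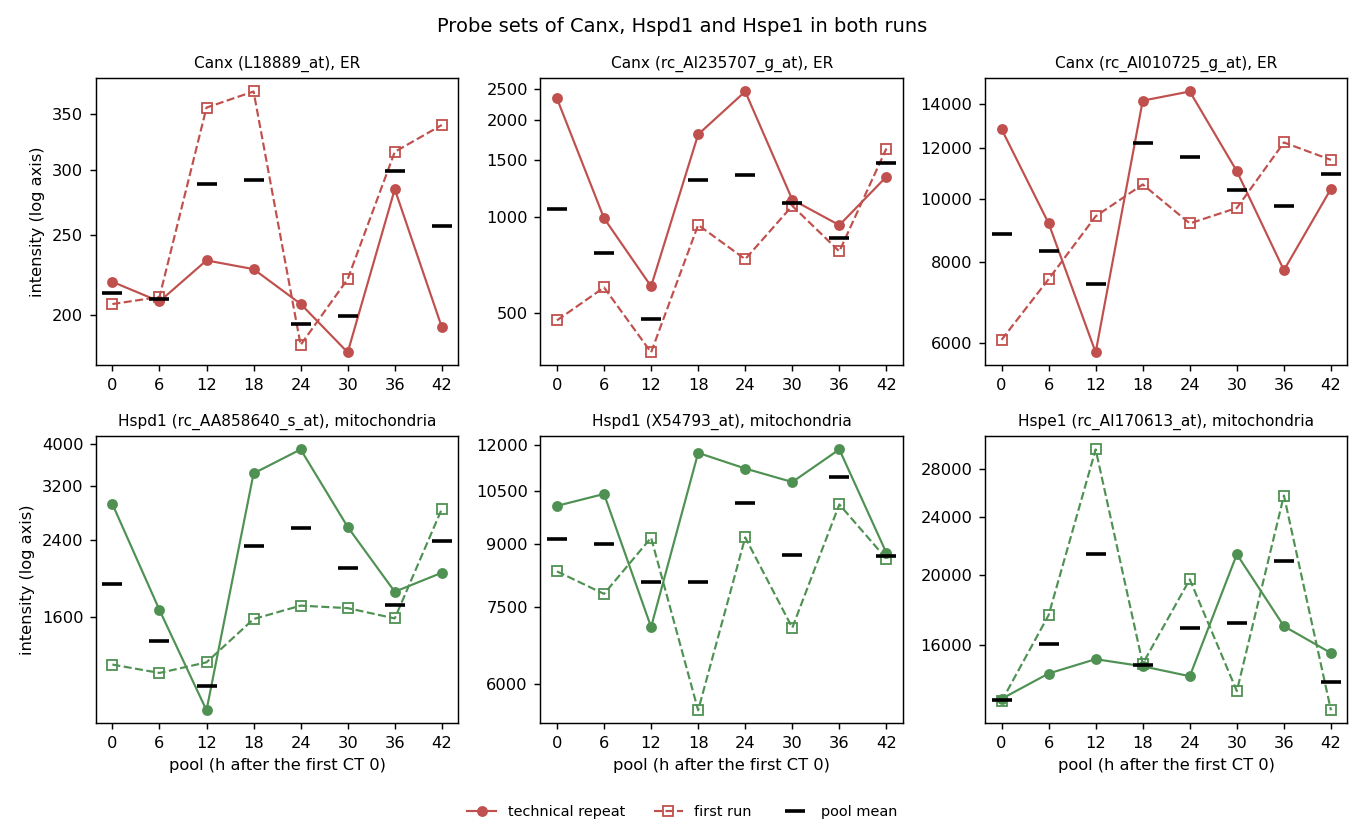
Intensity (log axis) of 3 Canx, 2 Hspd1 and 1 Hspe1 probe sets by pool (horizontal axis, hours after the first CT 0), with circles for the technical repeat, squares for the first run and black bars for the pool means. For rc_AI010725_g_at of Canx the CT 12 minus CT 0 difference is -1.03 in the technical repeat and 0.52 in the first run, and for rc_AA858640_s_at of Hspd1 it is -1.33 and -0.04.

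Over the group, 4 of 59 chaperone probe sets had an unadjusted p under 0.05 for a different time course in the technical repeat and the first run, against 3.11% of all tested probe sets, and 0 passed the adjusted limma threshold, against 0.0%. These were both rc_AI010725 probe sets of Canx, S63521_i_at of Hspa5 and S78556_at of Hspa9, hence 3 ER, 1 mitochondrial and 0 cytosolic. In the technical repeat alone 13 of 59 had an unadjusted rhythm p under 0.05, against 6.48% of all, and in the first run alone 3 of 59, against 3.66%; 0 passed the adjusted threshold in either, against 0.0229% and 0.0%. For CT 12 minus CT 0 the counts were 13 in the technical repeat, against 6.77% (0 adjusted, against 0.0458%), and 5 in the first run, against 6.02%. All 13 in the technical repeat were lower, where all 4370 tested probe sets gave 148 higher and 148 lower. For CT 6 minus CT 18 the counts were 8 in the technical repeat, against 5.51%, and 4 in the first run, against 2.72%. In the technical repeat 8 of the 13 with a CT 12 minus CT 0 difference were ER members, and in the first run 2 of 5.

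Between the days, no chaperone passed the adjusted limma threshold, against 0.0% of all tested probe sets. At an unadjusted p under 0.05, 4 of 59 differed, against 3.96% of all, with 4 higher on the second day and 0 lower, against 1.9% and 2.06% of all. They were Fkbp3, rc_AI010725_at of Canx (0.37 log2 units), rc_AI235707_g_at of Canx (0.47) and rc_AA858640_s_at of Hspd1 (0.42). Fkbp3, a nuclear FKBP, read 189.6, 218, 227 and 316 in the pools of the second day, against 158, 128, 174 and 194 in those of the first, a difference of 0.53 ± 0.15 log2 units (limma adjusted p = 0.997). The median second minus first day difference was 0.07 for the cytosolic, 0.05 for the ER and 0.12 for the mitochondrial chaperones, against 0.00 for all tested probe sets. The direction turned with the run for the ER, with 0.085 in the technical repeat and -0.024 in the first run, and for the mitochondria, with 0.17 and -0.0051, but not for the cytosol, with 0.090 and 0.070. A different course on the days had an unadjusted p under 0.05 in 3 of 59, against 3.8% of all, and an adjusted one in 0, against 0.0%. These were D78308_g_at of Calr, AF077354_at of Hspa4 and rc_AI136977_g_at of Fkbp4.

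The 26 chaperone probe sets below the filter had mean intensities of 13.2 (P4hb, M21476_s_at) to 121.3 (Pdia2), and for 11 genes no other probe set was tested. Among these 11 are the stress-inducible Hspa1a, with a mean intensity of 82.7, its relatives Hspa1l, with 49.0, and Hspa2, with 29.6, and the adaptor between Hsp70 and Hsp90, Stip1, with 50.3. Cct6a had 83.9, Fkbp1b 51.3, Dnajc17 44.9, Dnajb14 39.4, Dnajc1 101 and Pdia4 109. These 26 probe sets, and with them the inducible cytosolic Hsp70 genes, enter none of the counts out of 59. When the filter was dropped and all 85 were fitted among 8740, 2 were higher and 11 lower at CT 12 at an unadjusted p under 0.05, and 0 higher and 5 lower at CT 6, against 474 higher and 254 lower, and 216 higher and 258 lower, of all 8740.

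Genes that regulate or accompany the chaperones were taken as a list of 27, of which 11 were on the array and 10 tested. None passed the adjusted limma threshold for a rhythm, against 0.0% of all tested probe sets, and 2 of 10 had an unadjusted p under 0.05, against 6.36%. Chordc1, an Hsp90 partner, peaked at CT 21.2 with an amplitude of 0.35 ± 0.09 log2 units and a CT 12 minus CT 0 difference of -0.53, and Cryaa, a lens crystallin of the small heat shock family, peaked at CT 12.1 with 0.69. Hsf1, the heat shock factor itself, had a CT 6 minus CT 18 difference of -0.41 and a peak at CT 16.8. For the list, 9 of 10 were lower at CT 6, with a median of -0.13, while CT 12 minus CT 0 had a median of 0.07 (0.21 in the technical repeat and -0.06 in the first run). Of 12 tested genes of the unfolded protein response, 1 had an unadjusted rhythm p under 0.05, against the same 6.36% of all tested probe sets. It was Eif2ak3 (PERK), with a peak at CT 5.6 and a CT 6 minus CT 18 difference of 0.72. Atf3 peaked at CT 15.1 and Ddit3 (CHOP) at CT 22.7, both stress-induced transcription factors. The median CT 12 minus CT 0 difference of that list was -0.11, with 0.07 in the technical repeat and -0.23 in the first run. Mitochondrial import and protease genes had 0 of 7 at an unadjusted rhythm p under 0.05 and the cold-induced list 0 of 1, Srsf5. Lists of this size cannot be told from that share.

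Among 5 tested targets of glucocorticoids, the hormones whose daily peak in rats falls near dusk, Sgk1 was higher at CT 12 by 1.02 log2 units, Cebpd by 0.90, Klf9 by 0.65 and Glul by 0.24, whereas Errfi1 had -0.20. Of the 5, 2 had an unadjusted limma rhythm p under 0.05, against 6.36% of all tested probe sets, and 0 passed the adjusted threshold. The fitted peaks of these 5 genes lay, in the order named, at CT 13.3, CT 13.2, CT 11.0, CT 9.72 and CT 1.08. The list's median CT 12 minus CT 0 difference was 0.65, with 0.27 in the technical repeat and 0.70 in the first run. Markers of other cells that the tissue could hold were set beside the dusk-to-dawn values of the chaperones. The 7 tested oligodendrocyte genes had a median CT 12 minus CT 0 difference of -0.31 (0.03 in the technical repeat and -0.21 in the first run), with a summed intensity of 33690 to 37571 in the CT 12 pools, against 37566 to 37749 in the CT 0 pools. The 5 vessel genes had 0.19, with 0.17 in the technical repeat and 0.20 in the first run. The other medians turned with the run: the 8 astrocyte genes had -0.06 (0.04 in the technical repeat, -0.18 in the first run), the 5 microglial genes 0.08 (0.21 and -0.26) and the 4 genes of choroid plexus and ependyma -0.07 (0.19 and -0.19). The 5 SCN neuron genes had 0.11, with Avp higher at CT 12 by 0.60, and the 11 genes of neighbouring hypothalamic neurons -0.05, with -0.90 for Pmch, a peptide gene of the lateral hypothalamus. For CT 6 minus CT 18 the medians were 0.14 for astrocytes, 0.05 for vessels, -0.02 for microglia, 0.02 for oligodendrocytes and 0.25 for choroid plexus and ependyma, where Ttr had 2.04, Enpp2 0.42, Igf2 0.08 and Kl -0.20. SCN neuron genes had a median of 0.08 in this contrast. Genes of neighbouring hypothalamic neurons had -0.20, with -0.14 in the technical repeat and -0.21 in the first run. Of these 11 genes 9 were lower at CT 6, against 2313 of all 4370 tested probe sets. The part of tissue make-up in the chaperone values was not tested.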

How the data were processed

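Intensities on the rat Genome U34 GeneChip, array A were deposited by the authors as linear probe set values, which the files show to be scaled on each array to a 2% trimmed mean of 500.7 to 500.8; how probes were summarised is not given in the sources used here. Of 8799 probe sets, 59 controls were left out. Values under a floor of 12.1, the 10th percentile, were raised to it and log2 transformed; arrays of a pair were averaged within the first run, and then the runs within each pool, so that n is 8 pools. Probe sets above the median level were tested with limma 3.58.1 in R 4.3.3 (cosine and sine of 24 h, lmFit and eBayes), adjusted by Benjamini-Hochberg at 0.05. CT 12 minus CT 0 and CT 6 minus CT 18 are differences of the fitted curve. A day term, and the products of the curve with run and with day, were fitted separately. Single probe sets were also tested by exact permutation of the share of variance explained by the curve, over all arrangements of the pools over the phases (2520), two-sided by construction and unadjusted. Gene names come from the platform annotation, and all 85 members had their gene number in RefSeq. Named were, per compartment, members at an unadjusted p under 0.05 in the rhythm or phase tests, the brightest of each family, the 5 with the lowest p for phase by run, all tested probe sets of genes with several, and up to 3 genes of each further list by rhythm p; other members and further genes, such as Avp and Hsf1, were named after their values were seen. Members and lists were chosen with earlier results of these data known. Scripts were tested on simulated data. Scaling, filter, floor, pseudocount, runs, arrays of a pair and left-out pools were varied.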

Additional observations from a re-analysis of the deposited data

How the results depend on the processing

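The alternatives were followed for the 28 chaperone results at an unadjusted p under 0.05, and in 575 alternatives none of them had an adjusted p under 0.05 in limma. Of the 28, 16 are differences, which kept their sign in 329 alternatives, and the others are amplitudes, which have none. These 16 were chosen by a low p in the same pools, and the alternatives reuse the same readings. A change of sign was thus unlikely from the start, and the kept signs are no independent support. The CT 12 minus CT 0 difference of Serpinh1 ranged from -1.64 to -0.86. Other named differences had opposite signs in the technical repeat and the first run, such as CT 12 minus CT 0 of Canx rc_AI010725_g_at (-1.03 and 0.52), Hspa5 S63521_i_at (-0.65 and 0.41) and Dnaja3 (-0.48 and 0.35), and CT 6 minus CT 18 of Hspa9 (1.78 and -0.13). The counts of chaperone probe sets at an unadjusted p under 0.05 moved, and so did those of all tested probe sets. The rhythm count of 12 was 3 in the first run alone and 6 to 15 with a pool left out. The CT 12 minus CT 0 count of 10 was 19 with arrays centred on their median, 5 in the first run alone and 6 to 14 with a pool left out. The CT 6 minus CT 18 count of 6 was 2 without the first array of each pair and 5 to 8 with a pool left out. Without the first array of each pair, all tested probe sets gave 50 higher and 64 lower at CT 6, against 82 and 104 in the main fit. For CT 12 minus CT 0 without the pool at 12 h they gave 124 and 133, against 183 and 196. With both readings of each pool fitted, the run as covariate and the pool as random block, the 3 counts were 12, 12 and 6, with 0 adjusted calls. In that fit all 4370 tested probe sets gave 211 higher and 197 lower for CT 12 minus CT 0. For CT 6 minus CT 18 they gave 96 higher and 111 lower, and the share for the rhythm was not taken. The correlation of readings within a pool was estimated at 0.017. That fit thus took the readings of a pool as nearly independent, unlike the fit of 8 pools.

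The cytosolic CT 12 minus CT 0 median of -0.13 was -0.22 with arrays centred on their median, -0.087 without the level filter, -0.092 in the first run, -0.24 in the technical repeat, -0.16 without the second array of each pair and -0.16 to -0.11 with a pool left out. The ER median of -0.20 was -0.29 with centred arrays, -0.11 without the filter, -0.048 in the first run, -0.31 in the technical repeat and -0.23 to -0.16 with a pool left out. The mitochondrial median of -0.05 was -0.12 after quantile normalization, -0.14 with centred arrays, 0.10 in the first run, -0.35 in the technical repeat and -0.15 to 0.020 with a pool left out. The cytosolic CT 6 minus CT 18 median of -0.19 was -0.16 after quantile normalization, -0.13 with centred arrays, -0.18 with a pseudocount in place of the floor, -0.17 in either run, -0.20 with 1 probe set per gene and -0.21 to -0.12 with a pool left out. With a pool left out the ER median for CT 6 minus CT 18 was -0.22 to -0.15 and the mitochondrial one 0.06 to 0.21. The cause of these shifts was not tested.

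With 1 pool a time point and 2 pools a phase, precision is limited by the number of pools. The arrays of a pair, which the labels do not state to be of the same RNA, differed by a median of 0.30 log2 units over the chaperones at 24 h and 0.50 at 36 h, which is more than the median fitted amplitude of 0.20. The chaperone probe sets below the level filter were tested as a whole only in the alternative without it. The filter was set anew for other scalings and floors, so the tested set could shift, and 60 chaperone probe sets were tested with a pseudocount.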
